A study of Mus musculus with 10 samples.

Results

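This account covers 40 genes of the cell cycle in sorted mouse blood progenitors: 8 cyclins and cyclin-dependent kinases of the G1 phase, 14 genes of S phase and 18 genes of mitosis. They were chosen by name for their role, matched by Ensembl gene ID, and are 40 of the 38086 gene IDs present in both of the study's count tables. All 40 had enough reads to be tested in every comparison, with at least 91 reads in each library.

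The study sequenced total RNA from bone marrow cells of C57BL/6 mice at 12 months of age. In all 4 groups both alleles of Dnmt3a, a DNA methyltransferase, were floxed, and 5 injections of poly(I:C), the inducer of Cre, are listed for every library. LSK cells, sorted as Sca1+ cKit+ after lineage depletion, include the stem cells and early multipotent progenitors, and were sequenced from 3 KO libraries (Dnmt3a f/f Mx1-Cre+) and 2 CTRL libraries (Dnmt3a f/f Mx1-Cre-). GMP cells, sorted as cKit+ CD34+ FcgR+ and Sca1-, are progenitors of granulocytes and monocytes, and were also sequenced from 3 KO and 2 CTRL libraries of those genotypes. CTRL animals lack the Cre transgene, so loss of Dnmt3a and presence of Cre cannot be told apart, and Mx1-Cre acts in blood cells and in other cells that respond to interferon. The labels give a number per library. By counts of Xist and Y-linked genes each LSK group holds libraries of both sexes and so of more than 1 mouse. Beyond that separate animals are not stated, so p-values reflect the variation among these libraries, part of which may be technical.

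A cell enters the cycle when D-type cyclins with Cdk4 or Cdk6, and then E-type cyclins with Cdk2, phosphorylate the retinoblastoma protein and release E2F factors. E2F factors switch on the genes of S phase, such as the MCM helicase that opens the replication origins and the enzymes that make nucleotides. Genes of G2 and mitosis, such as B-type cyclins, Cdk1 and the spindle kinases, are switched on later, with B-Myb and FoxM1 as activators. Promoters of these genes often hold CCAAT boxes and cell cycle homology regions (CHR). Most long-term stem cells in adult marrow are quiescent, and granulocyte progenitors divide often.

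Promoters of 6 members are shown because S phase and mitotic genes are known for different promoter elements and are described apart here. Each sequence is the 160 bases before the start of transcription, on the strand of the gene, from RefSeq (GRCm38.p6). Capitals mark 3 kinds of motif, searched on both strands. The E2F motif was TTTCCCGC, TTTGGCGC, TTTCGCGC or TTTGCCGC, the CHR was TTTGAA or TTCGAA, and the CCAAT box was CCAAT. Where an E2F motif on one strand overlaps another on the opposite strand, as in Mcm5 and Mcm6, the capitals run together.
Mcm5, chr8:75109349-75109508, plus strand: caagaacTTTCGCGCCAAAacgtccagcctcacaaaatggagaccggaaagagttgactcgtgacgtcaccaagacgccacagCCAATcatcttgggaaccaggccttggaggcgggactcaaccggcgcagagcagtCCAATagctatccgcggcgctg
Mcm6, chr1:128359706-128359865, minus strand: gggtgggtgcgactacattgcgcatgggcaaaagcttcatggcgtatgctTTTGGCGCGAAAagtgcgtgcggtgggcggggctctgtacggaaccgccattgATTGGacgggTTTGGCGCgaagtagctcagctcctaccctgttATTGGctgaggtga
Cdk1, chr10:69352913-69353072, minus strand: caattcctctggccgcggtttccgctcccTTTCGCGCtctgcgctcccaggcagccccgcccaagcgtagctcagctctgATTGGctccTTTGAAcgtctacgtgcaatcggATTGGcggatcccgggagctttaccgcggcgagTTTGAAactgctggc
Ccnb2, chr9:70421555-70421714, minus strand: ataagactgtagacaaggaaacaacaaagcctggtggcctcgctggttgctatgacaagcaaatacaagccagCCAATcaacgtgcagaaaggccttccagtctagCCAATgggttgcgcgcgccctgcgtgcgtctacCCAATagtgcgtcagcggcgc
Cdc20, chr4:118437344-118437503, minus strand: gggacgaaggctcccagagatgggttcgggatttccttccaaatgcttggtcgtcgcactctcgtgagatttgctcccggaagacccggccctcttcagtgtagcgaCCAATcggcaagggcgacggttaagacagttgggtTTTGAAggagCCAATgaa
Top2a, chr11:99024190-99024349, minus strand: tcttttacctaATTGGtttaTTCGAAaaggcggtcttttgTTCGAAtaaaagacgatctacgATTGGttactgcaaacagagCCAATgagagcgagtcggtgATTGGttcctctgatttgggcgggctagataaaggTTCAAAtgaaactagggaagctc
The Mcm5 and Mcm6 stretches hold E2F motifs and CCAAT boxes, and the Cdc20 and Top2a stretches hold CHR and CCAAT motifs. The Cdk1 stretch holds all 3 kinds. The Ccnb2 stretch holds 3 CCAAT boxes, and its 2 CHR matches lie outside the printed bases.

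Promoters were in the RefSeq table used for 32 of the 40 members, with 34 promoters in all, each running from 250 bases before to 50 after the start. An E2F motif was in 6 of 14 promoters of S phase members (42.9%), in 1 of 14 of mitotic members (7.14%) and in 1 of 6 of G1 members, against 2.26% of all 32851 promoters. A CHR was in 10 of 14 mitotic promoters (71.4%), in 3 of 14 S phase promoters (21.4%) and in 0 of 6 G1 promoters, against 19.2% of all. A CCAAT box was in 12 of 14 mitotic promoters (85.7%), in 10 of 14 S phase promoters (71.4%) and in 2 of 6 G1 promoters (33.3%), against 37.4% of all. Different motifs overlapped in 1 place in these promoters. These are matches of letters, not measured binding.

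Gene counts per library were 29533371 to 30437981 in LSK and 93850256 to 122658636 in GMP. Dnmt3a had 55.5, 51.2 and 57.1 CPM (reads of the gene, scaled to the size of the library) in LSK KO against 151 and 145 in LSK CTRL, and 51.7, 65.8 and 20.5 CPM in GMP KO against 143 and 115 in GMP CTRL. The KO libraries were below the CTRL libraries in both populations. The decrease was called in LSK (log2 fold change -1.43 ± 0.08, adjusted p = 0.000106 by edgeR's quasi-likelihood test) and not in GMP (-1.50 ± 0.42, adjusted p = 0.300). Markers of the 2 populations went with their labels: 12 stem cell markers summed to 923 to 1048 CPM in LSK and 72.2 to 116 CPM in GMP, and 11 GMP markers such as Mpo and Elane summed to 2034 to 2663 CPM in LSK and 16692 to 26917 CPM in GMP. Values after ± are standard errors for log2 fold changes and SD for means, and CPM is scaled over all 10 libraries together.

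The abundance of the members spanned a wide range in every group. Per kilobase of exon, Mcm6, a subunit of the replicative helicase, was the most abundant member, at 155 CPM per kb in LSK KO, 147 in LSK CTRL, 207 in GMP KO and 248 in GMP CTRL. Top2a (the topoisomerase that untangles sister chromatids), Cdk4 and Pcna (the sliding clamp of DNA polymerase) followed in LSK KO, at 127, 117 and 114 CPM per kb. Among the least abundant per kilobase in GMP KO were Ccnd1 at 6.07, Ccnd3 at 7.12 and Foxm1 at 8.20 CPM per kb. Of the D-type cyclins, Ccnd2 stood highest per kilobase in all 4 groups, at 21.4 CPM per kb in LSK KO, 22.9 in LSK CTRL, 26.0 in GMP KO and 23.7 in GMP CTRL.

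Most S phase and mitotic members were called lower in LSK than in GMP, and a few G1 members were called higher. In KO, 29 of 40 members were called lower in LSK and 4 higher, where 30.1% of all genes tested were called lower and 30.7% higher (edgeR, adjusted p under 0.05). In CTRL, 29 members were called lower and 2 higher, where 27.3% of all genes were called lower and 28.2% higher. The same 28 members were called lower in both genotypes. In bulk samples, fewer cells in cycle and less RNA per cell cannot be told apart. LSK and GMP also came as separate tables, with different annotations and depths, and by counts of Xist and Y-linked genes 3 of 5 LSK libraries were female and the 5 GMP libraries male.

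The direction of some members depended on the scaling of the libraries. Over all genes tested the median LSK minus GMP log2 fold change was 0.08 in KO and 0.12 in CTRL, and 0.46 and 0.53 when libraries were scaled by total counts. Measured against that median, S phase members had a median of -0.55 in KO and -0.88 in CTRL, and mitotic members one of -0.62 in KO and -0.81 in CTRL. With total counts these relative medians were -0.55, -0.87, -0.62 and -0.82. Under both scalings, 34 of 40 members in KO and 37 of 40 in CTRL lay below the median gene. A change of scaling moves all genes by nearly the same amount, so values set against the median had to stay nearly the same. They do not bear on which scaling is right. Called lower at face value with total counts were 11 members in KO and 18 in CTRL, where 18.5% and 15.3% of all genes were called lower and 44.7% and 42% higher.

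**Figure D1:**
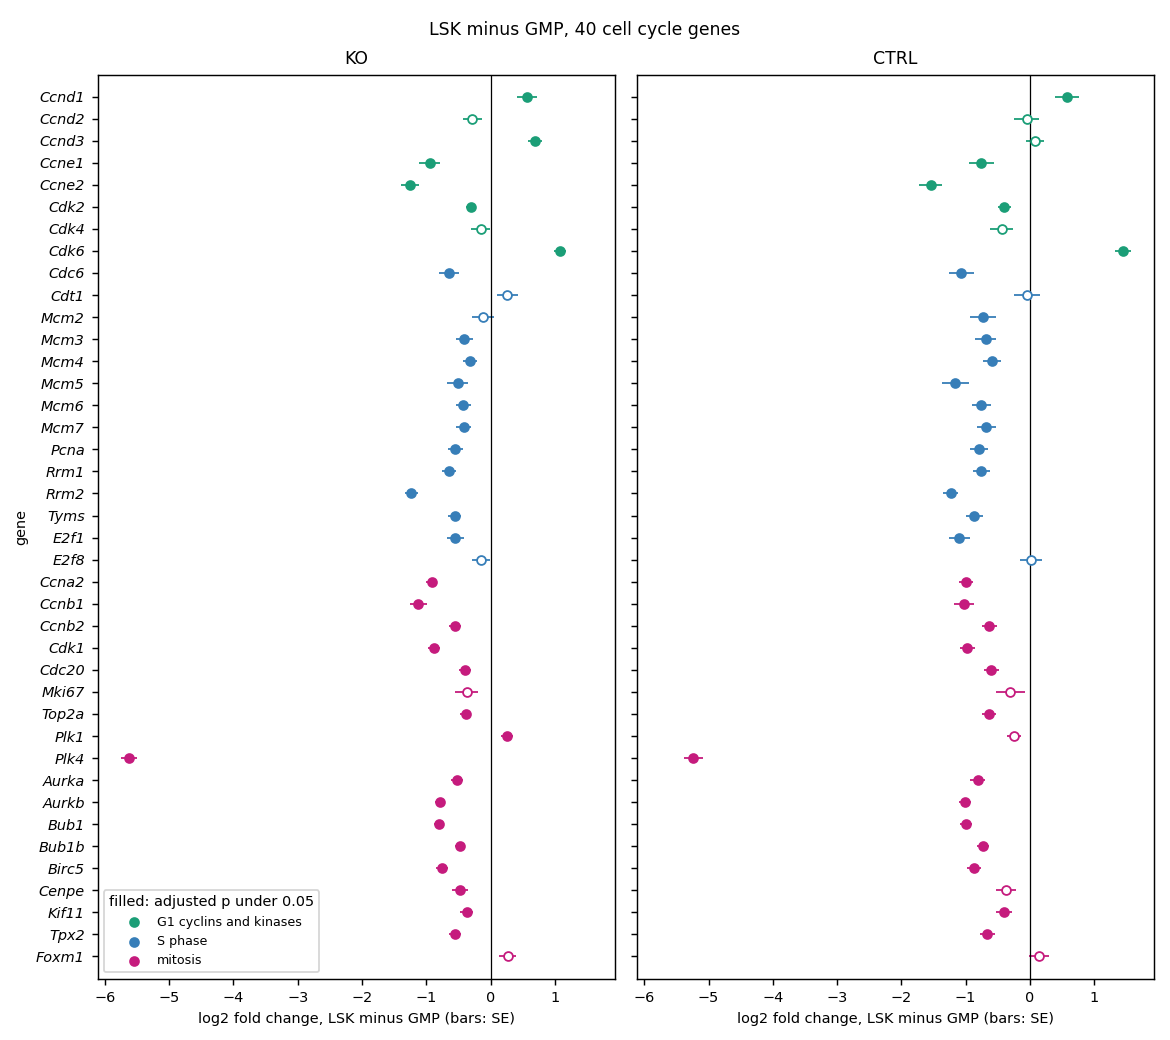
Log2 fold change of LSK minus GMP for each of the 40 members, in KO (left) and CTRL (right), with SE bars from the edgeR fit of all 10 libraries. Filled points passed an adjusted p of 0.05. Most S phase and mitotic genes sit left of 0, Cdk6 and Ccnd1 sit right of 0 in both genotypes, and Plk4 stands apart at -5.62 in KO and -5.24 in CTRL.

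Among the G1 genes, Cdk6 and Ccnd1 were called higher in LSK in both genotypes and the E-type cyclins lower. Cdk6, one of the paired kinases that D-type cyclins activate, had 1271, 1193 and 1076 CPM in LSK KO, 1223 and 1181 in LSK CTRL, 615, 562 and 497 in GMP KO and 462 and 418 in GMP CTRL. Every LSK library lay above every GMP library, and the log2 fold change was 1.08 ± 0.10 in KO (adjusted p = 5.89e-06, edgeR) and 1.45 ± 0.12 in CTRL (adjusted p = 6.37e-06, edgeR). Cdk4, its partner paralog, had 349.7, 410.5 and 384 CPM in LSK KO, 409 and 351 in LSK CTRL, 419.6, 342 and 512 in GMP KO and 572 and 457 in GMP CTRL. The KO populations overlapped for Cdk4, the CTRL populations did not, and neither difference was called (-0.15 ± 0.15 in KO, -0.44 ± 0.18 in CTRL). With total counts the CTRL value was -0.017. The CTRL difference was called with DESeq2's test (-0.46), with no filter on low counts (-0.46) and without CTRL-350 (-0.62). Per kilobase, Cdk4 and Cdk6 stood at 117 and 84.4 CPM per kb in LSK KO and at 131 and 39.9 in GMP KO.

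Ccnd1, a D-type cyclin, had 44.1, 43.3 and 40.1 CPM in LSK KO, 41.7 and 29.7 in LSK CTRL, 22.7, 33.7 and 29.4 in GMP KO and 23.2 and 24.7 in GMP CTRL. LSK libraries lay above GMP libraries of the same genotype, and Ccnd1 was called higher in both (0.57 ± 0.16 in KO, 0.58 ± 0.19 in CTRL). The call in CTRL was lost without CTRL-346, without CTRL-350 and without CTRL-1326 (0.31 to 0.58). Ccnd3, the D-type cyclin known for its part in lymphoid and neutrophil development, had 93.1, 107 and 103 CPM in LSK KO, 91.8 and 97.6 in LSK CTRL, 68.9, 52.7 and 65.9 in GMP KO and 93.5 and 86.0 in GMP CTRL. GMP KO stood below the other 3 groups, and Ccnd3 was called higher in LSK in KO (0.69 ± 0.11, adjusted p = 0.000331, edgeR), with 0.08 ± 0.13 in CTRL. With total counts it was called higher in CTRL too (0.50), and the difference between the genotypes was not called (adjusted p = 0.346, edgeR). Ccnd2, the most abundant D-type cyclin per kilobase, had 221, 199.8 and 182 CPM in LSK KO, 239.6 and 190.5 in LSK CTRL, 286, 236 and 211 in GMP KO and 259.6 and 186 in GMP CTRL. All 4 groups overlapped one another, and neither difference was called (-0.28 ± 0.15 in KO, -0.05 ± 0.19 in CTRL).

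The E-type cyclins activate Cdk2 at the entry to S phase. Ccne2 had 35.2, 45.6 and 42.8 CPM in LSK KO, 38.9 and 37.7 in LSK CTRL, 85.3, 88.2 and 121 in GMP KO and 114 and 109 in GMP CTRL. Its LSK and GMP libraries did not overlap (-1.25 ± 0.14 in KO, -1.55 ± 0.18 in CTRL). Ccne1 had 12.9, 19.8 and 16.2 CPM in LSK KO, 13.5 and 15.0 in LSK CTRL, 29.1, 29.1 and 36.2 in GMP KO and 24.9 and 23.1 in GMP CTRL, again with no overlap (-0.95 ± 0.16 in KO, -0.75 ± 0.19 in CTRL). The CTRL call was lost without CTRL-1326 (-0.68) and with total counts (-0.33). Cdk2 itself had 113, 104 and 119 CPM in LSK KO, 111 and 109 in LSK CTRL, 135, 134 and 145 in GMP KO and 139 and 152 in GMP CTRL. That was a smaller but also called difference, of -0.31 ± 0.08 in KO and -0.40 ± 0.10 in CTRL, and its sign turned positive with total counts.

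Of the 14 S phase members, 11 were called lower in LSK in KO and 12 in CTRL, and 0 were called higher in either genotype. With total counts, Rrm1 and Rrm2 were the 2 called lower in KO, and Cdt1 was called higher in KO. In CTRL 8 were called lower with total counts, and Mcm2, Mcm3, Mcm4 and Mcm7 lost their calls. Of all genes, 18.5% were called lower and 44.7% higher in KO with that scaling, and 15.3% lower and 42% higher in CTRL. Rrm2, the regulated subunit of the enzyme that makes deoxynucleotides, differed most, with 101, 125 and 117 CPM in LSK KO, 106 and 97.1 in LSK CTRL, 290.3, 245 and 269.7 in GMP KO and 245 and 232 in GMP CTRL. The 2 populations were far apart in both genotypes (-1.23 ± 0.10 in KO, -1.23 ± 0.12 in CTRL). Its partner subunit Rrm1 was lower by less, at -0.64 ± 0.11 and -0.76 ± 0.13.

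The MCM subunits, Mcm2 to Mcm7, form one ring and had log2 fold changes between -0.12 (Mcm2, not called) and -0.51 (Mcm5) in KO, and between -0.59 (Mcm4) and -1.16 (Mcm5) in CTRL. In KO the calls of Mcm3, Mcm4 and Mcm5 were lost without KO-352 (-0.26, -0.19 and -0.29), without KO-1327 and without KO-1334. The Mcm4 call in KO was also lost with DESeq2's test and with its size factors in edgeR (-0.31 in both), and with total counts Mcm2 and Mcm4 were positive. In CTRL the call of Mcm2 was lost without CTRL-346 (-0.45) and without CTRL-1330 (-0.60). E2f1, an activator of S phase genes, was at -0.55 ± 0.13 in KO and -1.10 ± 0.17 in CTRL. The replication licensing factors differed from each other: Cdc6 was called lower (-0.65 and -1.07), and Cdt1 was not called, at 0.26 in KO and -0.05 in CTRL. Without KO-352, Cdt1 was called higher in KO, at 0.47. E2f8, a repressor that acts late in S phase, was at -0.15 in KO and 0.01 in CTRL, with neither called.

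Of the 18 mitotic members, 15 were called lower in LSK in KO and 14 in CTRL, and Plk1 was called higher in KO (0.25 ± 0.09, adjusted p = 0.0356, edgeR). The Plk1 call was lost with DESeq2's test, with no filter on low counts, and without KO-179, KO-1327 or KO-1333 (0.19 to 0.27). With total counts, 7 were called lower and 2 higher in KO, and 9 lower and 1 higher in CTRL. Plk1 was among those called higher in KO with total counts, at 0.63. With that scaling, 18.5% of all genes were called lower and 44.7% higher in KO, and 15.3% lower and 42% higher in CTRL. The median of the 18 was -0.54 in KO and -0.69 in CTRL. In KO and CTRL, Ccnb1 was at -1.12 ± 0.13 and -1.03 ± 0.16, Ccna2 at -0.92 ± 0.09 and -0.99 ± 0.11, and Cdk1 at -0.88 ± 0.10 and -0.97 ± 0.12. The cyclin Ccnb2 lay near the median, at -0.56 ± 0.10 and -0.63 ± 0.12, and its calls were lost with total counts (-0.17 and -0.22). The kinase Aurkb and its partner Birc5, of the chromosomal passenger complex, were at -0.79 and -0.76 in KO and -1.01 and -0.87 in CTRL. Ccnb1, Ccna2, Cdk1, Aurkb and Birc5 were also called lower with total counts in both genotypes. Kif11, a spindle motor, was called lower in both (-0.37 and -0.40) and stood at 0.0065 and 0.0052 with total counts. Its CTRL call was also lost without CTRL-350 (-0.29) and without CTRL-1330 (-0.34).

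Mki67, the proliferation marker, did not pass the test (-0.37 ± 0.18 in KO, -0.31 ± 0.22 in CTRL). It had 1055, 914 and 869 CPM in LSK KO, 989 and 917 in LSK CTRL, 1359.8, 1452 and 860.3 in GMP KO and 1001 and 1359.5 in GMP CTRL. The GMP libraries themselves were spread, and KO-352 (860.3 CPM) lay below every LSK library. Without KO-352 the KO difference was called, at -0.55. Foxm1, a transcription factor of mitotic genes, was also not called, at 0.27 ± 0.13 in KO and 0.14 ± 0.16 in CTRL. It was called higher in LSK with total counts in both genotypes (0.65 and 0.55), and in KO without KO-178 (0.41).

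Plk4, the kinase that starts the duplication of centrioles, stood far from all other members. It had 3.48, 2.75 and 2.62 CPM in LSK KO, 3.87 and 3.58 in LSK CTRL, 151, 144 and 142 in GMP KO and 141 and 140.1 in GMP CTRL. In read counts these were 91 to 127 reads in LSK libraries and 11575 to 15981 in GMP libraries. The ratio of GMP to LSK means was 49.4 in KO and 37.7 in CTRL, and the log2 ratio lay 18.8 scaled median absolute deviations below the median member in KO and 10.3 in CTRL. The next lowest member, Ccne2, had a ratio of GMP to LSK means of 2.38 in KO and 2.92 in CTRL. No other gene overlaps Plk4 (chromosome 3, 40800019 to 40816883, plus strand) in the GENCODE vM21 annotation of GRCm38. Each table was counted on its own annotation, and annotation and population cannot be told apart for this gene.

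By the same measure, with a limit of 3 scaled deviations, the other members whose ratio stood apart were Cdk6 in both genotypes and Ccnd1 and Ccnd3 in KO, all toward LSK. Among 120 other cell cycle genes examined, Fen1, the flap endonuclease of lagging strand synthesis, had a smaller gap than Plk4. It had 2.46 to 3.48 CPM in LSK libraries and 12.9 to 26.8 in GMP libraries (-2.34 ± 0.24 in KO, -2.75 ± 0.29 in CTRL), and was the only one of the 120 past 2 on the log2 scale. In the annotation, 19 of the 40 members overlap another gene, and the sources do not state whether reads were assigned by strand.

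**Figure D2:**
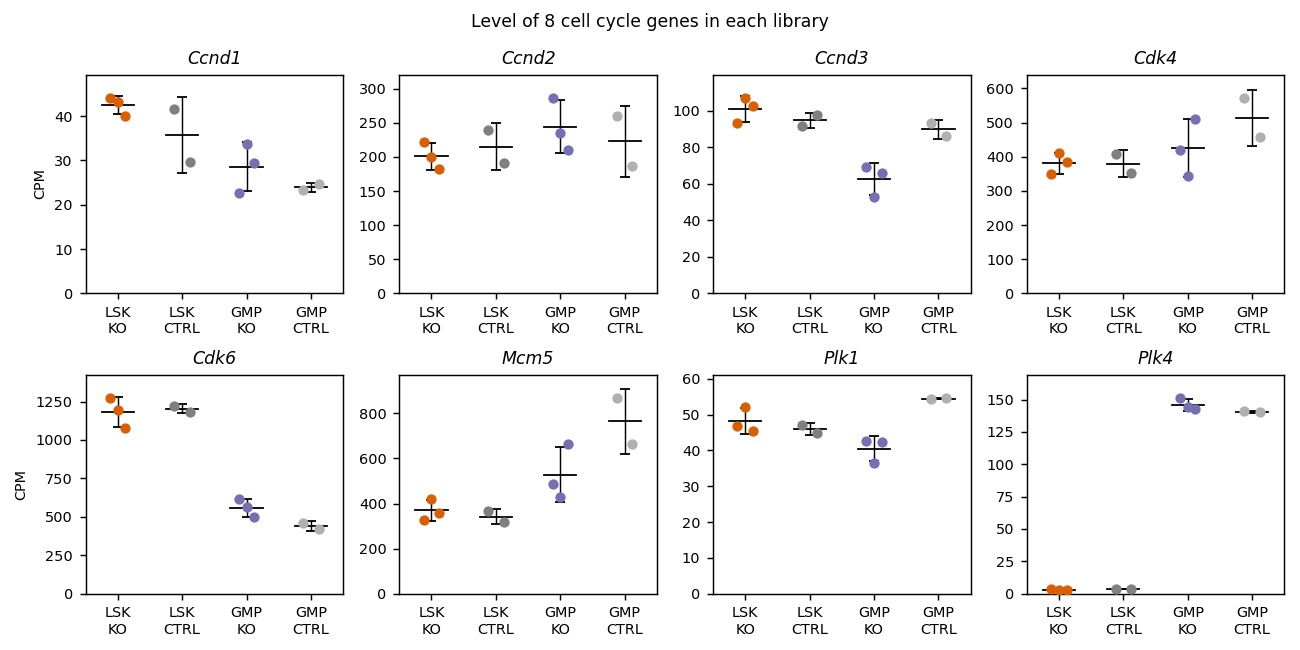
CPM of 8 members in each library (points), with group means and SD bars, in LSK KO, LSK CTRL, GMP KO and GMP CTRL. Cdk6 is higher and Mcm5 and Plk4 are lower in LSK, and Ccnd3 and Plk1 are lowest in GMP KO. Ccnd2 overlaps between populations in both genotypes, and Cdk4 overlaps in KO but not in CTRL.

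No member was called between KO and CTRL in GMP. The count of 0 of 40 stood beside 0.0347% of all 17290 genes tested (6 genes), 7 members had an unadjusted p under 0.05 in edgeR (17.5% of members, against 13.8% of all genes), and limma-voom called 0 of 40 and 0 of all genes. DESeq2 called 2 of 40 members lower, Ccnd3 and Plk1, where it called 1.67% of the 16630 genes given an adjusted p lower and 4.32% in either direction. The members' log2 fold changes were negative for 30 of 40, against 48.8% of all genes, and the median was -0.17 against 0.01. By role, the median was 0.02 for the G1 genes (4 of 8 negative), -0.21 for the S phase genes (12 of 14 negative) and -0.10 for the mitotic genes (14 of 18 negative). All KO libraries lay below all CTRL libraries for 10 members (14.6% of all genes) and above them for 4 (17.7% of all genes).

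Ccnd3 was lowest in GMP KO, at 68.9, 52.7 and 65.9 CPM against 93.5 and 86.0 CPM in GMP CTRL. The groups did not overlap. The log2 fold change was -0.54 ± 0.14, with an adjusted p of 0.278 by edgeR and 0.039 by DESeq2. Cdk6 had 615, 562 and 497 CPM in GMP KO and 462 and 418 CPM in GMP CTRL, with all KO libraries above (0.33 ± 0.13, adjusted p = 0.348, edgeR). Ccne1 had 29.1, 29.1 and 36.2 CPM in GMP KO and 24.9 and 23.1 CPM in GMP CTRL, also without overlap (0.38 ± 0.15, adjusted p = 0.348, edgeR). The other 5 G1 genes overlapped between the groups, with log2 fold changes from -0.29 (Cdk4) to 0.24 (Ccnd1).

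The S phase genes with the smallest p were 2 subunits of the MCM helicase. Mcm5 had 489, 430.1 and 663 CPM in GMP KO and 867 and 663 CPM in GMP CTRL (-0.55 ± 0.21, adjusted p = 0.343, edgeR). Mcm2 had 319.9, 288 and 436 CPM in GMP KO and 569 and 413 CPM in GMP CTRL (-0.51 ± 0.22, adjusted p = 0.362, edgeR). In both genes KO-352 lay within the range of the CTRL libraries or at its lower edge, and the other 2 KO libraries lay below it. Rrm2 and E2f8 were the 2 S phase members with a positive value, at 0.16 ± 0.12 and 0.07 ± 0.17.

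The libraries of one genotype were not alike in S phase genes. The mean log2 level of the 14 genes, set against the mean of the CTRL libraries, was lowest in KO-179 (-0.35) and KO-178 (-0.24), with KO-352 at -0.03, CTRL-346 at 0.11 and CTRL-350 at -0.11. KO-352 lay between the 2 CTRL libraries. The median log2 fold change of the S phase genes was -0.37 without CTRL-350, -0.07 without CTRL-346 and -0.31 without KO-352.

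Other measures also differed between the GMP libraries. Reads outside annotated genes made 10.3% of the reads listed in KO-352, 15.5% in KO-178 and 16.1% in KO-179, against 8.50% in CTRL-346 and 14.2% in CTRL-350. The share of reads outside genes gives the order of the S phase level in reverse. The summed level of 11 GMP markers was 22775, 19053 and 16692 CPM in these KO libraries and 26917 and 20835 CPM in these CTRL libraries. That sum gives the same order of libraries as the S phase level, and Mpo was its largest part (8061 to 14787 CPM). Of the 11 markers Gfi1, Fcgr2b and Ms4a3 had positive log2 fold changes between KO and CTRL (0.45, 0.17 and 0.06), and the others negative ones. Markers of mature neutrophils summed to 714, 2664 and 5084 CPM in KO and 1081 and 2631 CPM in CTRL, and none of the 11 was at 0 in any GMP library. Markers of mast cells, basophils and eosinophils summed to 1069.6, 1058 and 1363 CPM in KO and 1733 and 4694 CPM in CTRL, were highest in CTRL-350 and did not follow the S phase order, and of these 13 markers Tpsb2 was at 0 in all GMP libraries but CTRL-346. With the share of reads outside genes in the fit, the S phase median was -0.09 and the mitotic median -0.16. That fit called 0 members, beside 205 of all 17290 genes tested, where the fit without the share called 6. An unadjusted p under 0.05 was found for 10 members in place of 7, and the lowest adjusted p of a member was 0.0898 (edgeR). Between KO-352 and the 2 CTRL libraries alone, the S phase and mitotic medians were -0.03 and -0.20. The part of these measures in the result was not otherwise tested.

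The mitotic genes held 8 of the 10 members whose KO libraries all lay below the CTRL libraries: Ccnb2, Cdc20, Top2a, Plk1, Aurka, Aurkb, Bub1 and Bub1b. The other 2 were Ccnd3 and Tyms. Plk1, a kinase that drives entry into mitosis, had 42.7, 36.4 and 42.3 CPM in GMP KO and 54.4 and 54.5 CPM in GMP CTRL. The gap between the groups was wider than the spread within either (-0.44 ± 0.11), with an adjusted p of 0.278 by edgeR and 0.033 by DESeq2. Aurka, a kinase of the spindle poles, had 90.7, 77.2 and 88.3 CPM in GMP KO and 97.6 and 108 CPM in GMP CTRL (-0.28 ± 0.11, adjusted p = 0.350, edgeR).

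Cdc20, which activates the anaphase-promoting complex, had 142, 128 and 149 CPM in GMP KO and 159 and 168 CPM in GMP CTRL (-0.23 ± 0.11). Mki67, Cenpe and Ccnb1 did not go with these genes. Mki67 had 1359.8, 1452 and 860.3 CPM in GMP KO and 1001 and 1359.5 CPM in GMP CTRL, so that KO-352 and CTRL-346 were the 2 low libraries, across genotypes. Ccnb1 had 192, 204 and 144 CPM in GMP KO and 156 and 178.8 CPM in GMP CTRL, and Cenpe, a kinetochore motor, had 219, 214 and 167 CPM in GMP KO and 169 and 221 CPM in GMP CTRL. The same 2 libraries, KO-352 and CTRL-346, were lowest for Ccnb1 and Cenpe, and they had the smallest shares of reads outside genes.

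**Figure D3:**
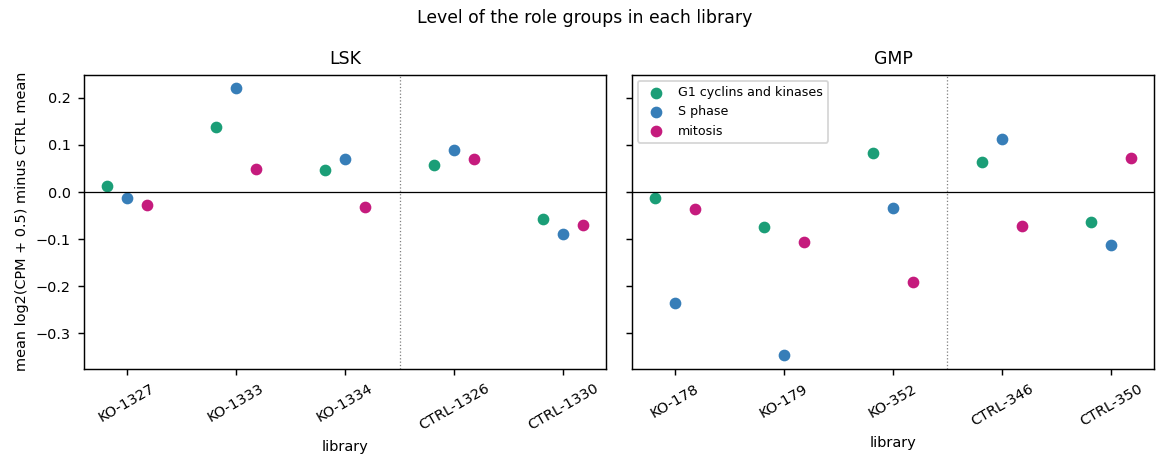
Mean log2(CPM + 0.5) of the G1, S phase and mitotic members in each LSK (left) and GMP (right) library, minus the mean of the CTRL libraries of that population. KO libraries stand left of the dotted line and CTRL libraries right of it. S phase levels are lowest in GMP KO-179 (-0.35) and KO-178 (-0.24), and in LSK the KO libraries span -0.01 to 0.22.

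In LSK no member was called between KO and CTRL either. The count of 0 of 40 stood beside 0.0232% of all 17238 genes tested (4 genes), 1 member had an unadjusted p under 0.05 in edgeR (2.5% of members, against 2.83% of all genes), and DESeq2 and limma-voom each called 0 of 40, beside 0.0802% and 0.0232% of all genes. Every member had an adjusted p of 0.9998 or above. The log2 fold changes were positive for 31 of 40 members, against 50.8% of all genes, with a median of 0.05. By role the median was 0.06 for the G1 genes, 0.09 for the S phase genes (13 of 14 positive) and 0.03 for the mitotic genes (12 of 18 positive). Without CTRL-1330, 18 of 40 were positive. The KO libraries all lay above the CTRL libraries for 1 member, E2f1 (6.34% of all genes), and below them for 1, Plk4 (7.67% of all genes).

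E2f1 had 26.8, 32.4 and 33.8 CPM in LSK KO and 22.9 and 26.1 CPM in LSK CTRL. The lowest KO library stood just above the highest CTRL library (0.35 ± 0.13, unadjusted p = 0.0292, edgeR). Rrm2 had 101, 125 and 117 CPM in LSK KO and 106 and 97.1 CPM in LSK CTRL, with overlap (0.18 ± 0.09). Ccnd1 had 44.1, 43.3 and 40.1 CPM in LSK KO and 41.7 and 29.7 CPM in LSK CTRL, where CTRL-1330 alone was low (0.26 ± 0.14).

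The 2 mitotic members with the smallest p in LSK were Plk4 and Bub1. Bub1, a kinase of the spindle checkpoint, had 81.7, 88.4 and 80.6 CPM in LSK KO and 83.0 and 75.2 CPM in LSK CTRL (0.09 ± 0.08). Ccnd3 had 93.1, 107 and 103 CPM in LSK KO and 91.8 and 97.6 CPM in LSK CTRL (0.10 ± 0.08), and the groups overlapped. Plk4, at its low level in this table, had 3.48, 2.75 and 2.62 CPM in LSK KO and 3.87 and 3.58 CPM in LSK CTRL (-0.32 ± 0.23). Of the mean S phase level, KO-1333 stood highest at 0.22 above the CTRL mean, with KO-1327 at -0.01 and KO-1334 at 0.07, and with the CTRL libraries at 0.09 and -0.09. With sex, read from Xist and Y-linked counts, in the fit the S phase median stayed at 0.09.

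**Figure D4:**
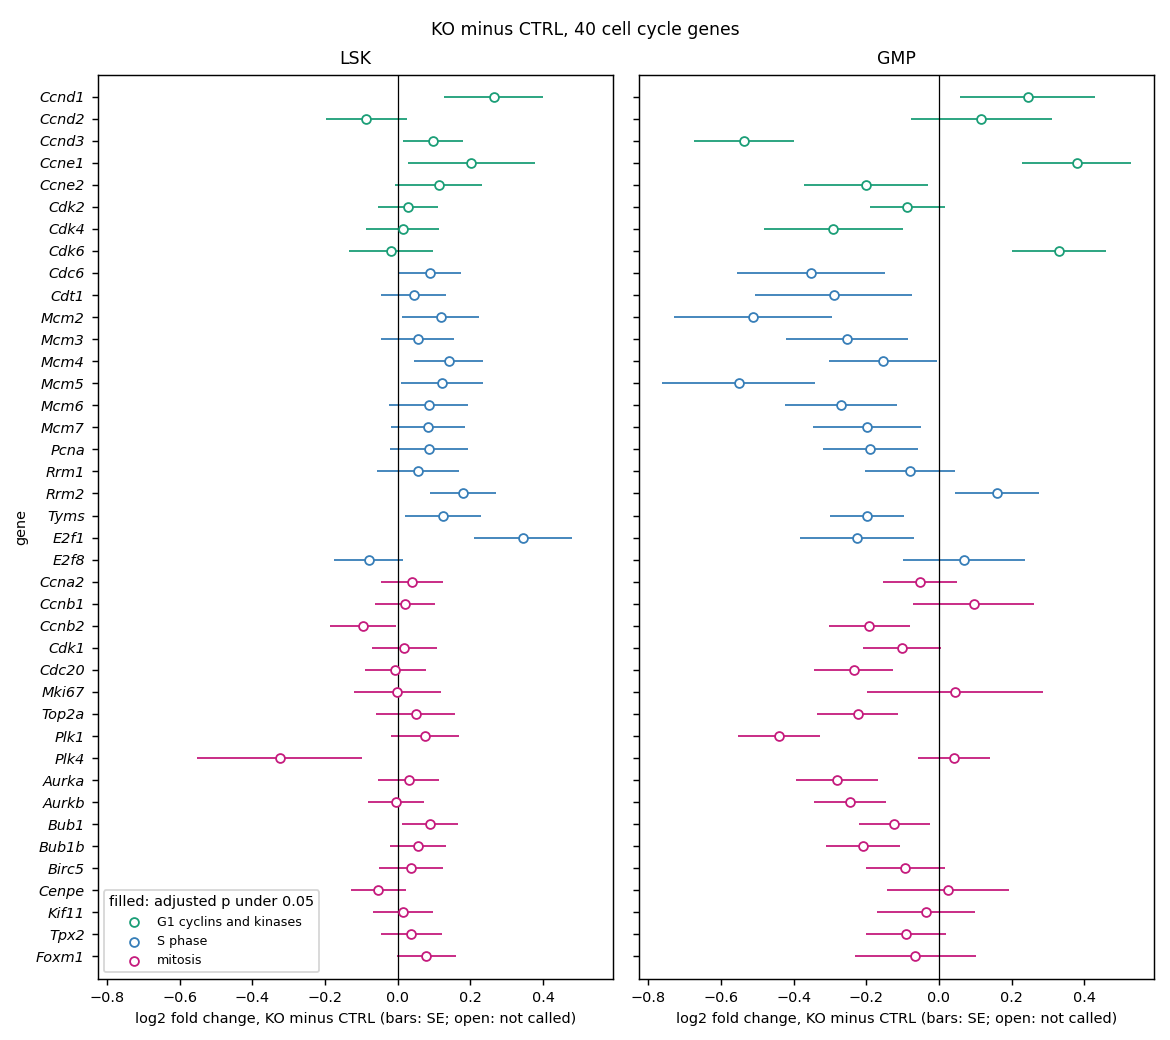
Log2 fold change of KO minus CTRL for each of the 40 members in LSK (left) and GMP (right), with SE bars from edgeR. All points are open because no member passed an adjusted p of 0.05. In LSK 31 of 40 points lie right of 0, and in GMP 30 of 40 lie left of 0.

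The difference between the KO effects of the 2 populations was tested as LSK minus GMP in a fit of all 10 libraries. It was called for 0 of 40 members, beside 0.0265% of all 18836 genes tested (5 genes). An unadjusted p under 0.05 was found for 7 members (17.5%, against 10.1% of all genes), and DESeq2 called 0 of 40, beside 1.3% of all genes. The smallest p values were those of Ccnd3 (0.61 ± 0.17, adjusted p = 0.346, edgeR) and Plk1 (0.49 ± 0.15, adjusted p = 0.353, edgeR). The median difference was 0.05 for the G1 genes, 0.29 for the S phase genes and 0.11 for the mitotic genes, with -0.02 over all genes. Without CTRL-346 the S phase median was 0.12, and without CTRL-350 it was 0.47.

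The wider pathway was read from 120 other genes: 45 of DNA replication, 49 of mitosis, and 26 of the RB and E2F axis and the checkpoints. In LSK minus GMP the replication and mitotic lists went the way of the members. Of the 45 replication genes, 35 were called lower and 1 higher in KO, and 37 lower and 0 higher in CTRL. Of the 49 mitotic genes, 34 were called lower and 2 higher in KO, and 35 lower and 1 higher in CTRL. The 26 RB, E2F and checkpoint genes were mixed, with 8 lower and 10 higher in KO and 10 lower and 7 higher in CTRL. Of all genes, 30.1% were called lower and 30.7% higher in KO, and 27.3% lower and 28.2% higher in CTRL. The RB, E2F and checkpoint list lay nearer to these shares than the other lists. With total counts the replication genes called lower were 18 in KO and 20 in CTRL, and the mitotic genes 15 in KO and 12 in CTRL. The shares of all genes called lower were then 18.5% in KO and 15.3% in CTRL. Against the median of all genes, 44 of 45 replication genes and 45 of 49 mitotic genes lay lower in both genotypes. The choice of scaling hardly changes a position against that median, so these counts do not bear on the calls lost with total counts.

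Between KO and CTRL, edgeR called 0 of the 120 in either population, beside 0.0347% of all genes in GMP and 0.0232% in LSK. DESeq2 called 2 of the 120 lower in GMP, Gtse1 and Fzr1, where it called 1.67% of all genes lower. In LSK it called 0 of the 120, beside 0.0802% of all genes. An unadjusted p under 0.05 was found for 4 replication, 4 mitotic and 3 RB, E2F or checkpoint genes in GMP, and for 0, 0 and 1 in LSK. In GMP these were 8.89%, 8.16% and 11.5% of the lists, against 13.8% of all genes, and in LSK the share of all genes was 2.83%. The medians in GMP were -0.09, -0.07 and -0.04 for the 3 lists, and in LSK they were 0.08, 0.04 and 0.07. Gtse1, a microtubule-binding protein of G2, had 32.9, 29.3 and 34.3 CPM in GMP KO and 45.3 and 47.6 CPM in GMP CTRL. Fzr1, the activator of the anaphase-promoting complex in G1, had 48.7, 39.7 and 46.7 CPM in GMP KO and 61.3 and 67.2 CPM in GMP CTRL. For both genes every KO library lay below every CTRL library, with log2 fold changes of -0.54 ± 0.12 and -0.52 ± 0.12 and adjusted p of 0.260 and 0.264 by edgeR.

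Pold1, the catalytic subunit of DNA polymerase delta, had 85.8, 66.5 and 131 CPM in GMP KO and 197 and 144 CPM in GMP CTRL (-0.87 ± 0.28, adjusted p = 0.319, edgeR). In that gene too KO-352 stood nearest to the CTRL libraries. Rfc2, a subunit of the clamp loader, was at -0.42 ± 0.14 in GMP, the cyclin Ccnf at -0.30 ± 0.11 and the checkpoint kinase Chek2 at -0.44 ± 0.16. In LSK the 2 genes of each list with the smallest p were Chek1 and Tfdp2, Pold3 and Cdc45, and Kif20b and Prc1. Their values were Chek1 (0.22 ± 0.09), Pold3 (0.18 ± 0.08), Kif20b (0.16 ± 0.07), Tfdp2 (-0.18 ± 0.08), Cdc45 (0.19 ± 0.10) and Prc1 (0.11 ± 0.07), and all 6 had an adjusted p of 0.9998 or above by edgeR.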

How the data were processed

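The raw tables, 1 for each population, give read counts by Ensembl gene as deposited. The submitters' processing notes name STAR, HTSeq (0.5.3p3), DESeq (1.18.0), DESeq2 (1.4.5) and the mm10 build, GRCm38, with no roles. Which annotation release and strand setting the authors used: not given in the sources used here. Libraries were stranded total RNA depleted of ribosomal RNA, per the labels' protocols. The deposited normalized tables hold a signal, which is the raw count over a constant per library (to 0.1% for 99.9% or more of genes), and these constants were used as an alternative scaling. Totals that name no gene were left out of library sizes: reads outside genes were 8.50% to 16.1% in GMP.

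GMP library KO-352 carries a description that points to LSK data, against its title, which was followed. Members were matched to GENCODE vM21. Testing used edgeR 4.0.16 under R 4.3.3: filterByExpr (minimum count 10), TMM, glmQLFit and glmQLFTest, two-sided, Benjamini-Hochberg adjustment over all genes tested, threshold 0.05. KO minus CTRL was fitted within each population, with 3 residual degrees of freedom. LSK minus GMP and the difference of KO effects came from 1 fit of all 10 libraries over shared gene IDs. The SE was obtained from the F statistic. No libraries agreed within sampling noise. Alternatives were DESeq2 1.42.0, limma-voom (limma 3.58.1), other scalings and filters, covariates and libraries left out. The procedure was also run on simulated counts with the same spread for every gene and larger changes. That run does not bear on changes as small as the members' KO effects.

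Values by library are given for all G1 genes, for the 2 members of each role group with the smallest p in each KO comparison and in the difference of KO effects, and for members whose LSK to GMP ratio stood apart; Mki67, Ccnb1, Cenpe and Cdc20 were added after their values were seen. Members and lists were chosen with earlier results of these data known.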

Additional observations from a re-analysis of the deposited data

How the results depend on the processing

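The counts of members called changed as follows. With DESeq2's test, 2 members were called lower in GMP KO than in GMP CTRL, in place of 0, and over all genes 718 of the 16630 given an adjusted p were called, in place of 6 of 17290. With libraries scaled by total counts, 11 members in KO and 18 in CTRL were called lower in LSK than in GMP, in place of 29 each, and 4 were called higher in CTRL, in place of 2. That scaling moves all genes by nearly the same amount. The numbers of members below the median of all genes therefore had to stay nearly the same, and they did. Leaving out 1 library at a time gave 1 to 2 members called higher in LSK CTRL than in GMP CTRL, with 1 in the runs without GMP CTRL-346, without GMP CTRL-350 and without LSK CTRL-1326. Members with all KO libraries above all CTRL libraries were 2 in GMP with DESeq2's size factors, in place of 4, and 7 in LSK with total counts, in place of 1. The shares of all genes were 17.7% in GMP and 6.34% in LSK under TMM scaling, and were not computed under these other scalings. In LSK the median KO minus CTRL over all genes was 0.021 with total counts, against 0.0027. The cause of these changes was not tested. In all, 9 of 130 recomputed counts moved by over 1.5 times. The 4 single genes that became called between KO and CTRL did so with DESeq2 in GMP (Ccnd3, Plk1, Gtse1 and Fzr1).

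Log2 fold changes changed sign as follows, for all members in LSK minus GMP and, between KO and CTRL, for the genes whose fold changes are printed. With total counts, LSK minus GMP in KO became 0.10 for Ccnd2, 0.078 for Cdk2, 0.23 for Cdk4, 0.26 for Mcm2, 0.064 for Mcm4, 0.22 for E2f8, 0.0028 for Mki67 and 0.0065 for Kif11. In CTRL it became 0.37 for Ccnd2, 0.012 for Cdk2, 0.37 for Cdt1, 0.097 for Mki67, 0.17 for Plk1, 0.034 for Cenpe and 0.0052 for Kif11. Of these, Cdk2 and Kif11 in both genotypes and Mcm4 in KO had been called. With single libraries left out, the lowest and highest LSK minus GMP values in KO were -0.27 and 0.026 for Cdk4 and -0.23 and 0.098 for Mcm2. In CTRL they were -0.31 and 0.23 for Ccnd2, -0.013 and 0.17 for Ccnd3, -0.30 and 0.23 for Cdt1, -0.15 and 0.20 for E2f8, and -0.011 and 0.32 for Foxm1. E2f8 in CTRL was at -0.0046 with no filter on low counts. In GMP KO minus CTRL, E2f8 ranged from -0.11 to 0.25 with single libraries left out, and was at -0.11 with the share of reads outside genes in the fit and at -0.19 between KO-352 and the CTRL libraries. In LSK KO minus CTRL, 22 members were negative without CTRL-1330 and 14 without KO-1333, in place of 9. The mitotic median there was -0.021 and -0.0024, in place of 0.026. No paired analysis was possible because no library number occurs in more than 1 group.

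With 2 CTRL libraries in each population, 1 library can set a direction: the GMP S phase median ranged from -0.37 to -0.07 when single libraries were left out. The members' SE of KO minus CTRL on the log2 scale had a median of 0.14 in GMP (0.098 to 0.24) and 0.094 in LSK (0.075 to 0.23). Population, table, annotation and depth cannot be told apart.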
